A study of Mus musculus with 2 samples.

Results

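The 40 genes described here are a module of cell cycle genes, 18 that act in S phase or at its start and 22 that act in G2 or mitosis. They were chosen by name from what they are known to do, with earlier results of these data known. All 40 genes were found among the 32285 gene identifiers of the matrices. Their transcripts were read in single T cells sorted from mouse tumours, in 1 library of wild-type cells (WT) and 1 library from animals in which Jmjd1c, a gene for a JmjC domain protein of the histone demethylase family, was deleted in regulatory T cells (cKO). Regulatory T cells (Tregs) are the Foxp3-dependent CD4 T cells that hold other immune cells in check. The mice of both groups were C57BL/6 and 8 to 12 weeks old, the cells came from tumour tissue, and Tregs were taken by magnetic selection followed by a fluorescence sort. The labels used here give neither the tumour model, the number of animals, the driver of the deletion nor the exons removed.

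Cells copy their DNA in S phase and divide it in mitosis, and each step needs its own proteins. E2F factors switch on the genes for DNA synthesis when a cell leaves G1. Genes for mitosis follow later, under the control of the DREAM complex and, separately, of MuvB with B-MYB and FOXM1. These act through a short promoter element, the cell cycle homology region (CHR), often beside CCAAT boxes bound by NF-Y. Tregs inside tumours are known to divide actively.

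Promoters are shown first because matches to these elements differed in frequency between S phase and G2/M members, though not every member had them. RefSeq start sites on GRCm38.p6 gave a window of 300 bases, from 250 before to 50 after the start, for 33 of the 40 members, and Gins2, Aurkb, Stmn1, Mcm4, Tpx2, Ccna2 and Ccne2 had none. Matches were searched on both strands: TTTGAA or TTCGAA for the CHR, CCAAT for the CCAAT box, and for the E2F site TTCCCGC or one of its variants TTGGCGC and TTCGCGC as well as TTGCCGC. Matches may overlap. Mcm7 and Uhrf1 had 2 windows each, and a member was counted once, with a match in any of its windows. The share of all promoters instead counts each window. A CHR match was present in 14 of 18 G2/M members (77.8%), in 2 of 15 S phase members (13.3%) and in 19.2% of all 32851 promoters. An E2F match was present in 3 of 18 G2/M members (16.7%), 8 of 15 S phase members (53.3%) and 9.57% of all promoters. CCAAT boxes lay in 16 of 18 and 10 of 15, against 37.4% of all promoters. A CHR together with a CCAAT box was found in 14 of 18 G2/M members and 2 of 15 S phase members, against 7.52% of all promoters. The 2 S phase exceptions were Mcm2 and Mcm7. Of the G2/M members with a window, Ccnb1 and Cenpe had a CCAAT box without a CHR match, and Birc5 and Nusap1 had no match of any kind. A match is a description of these letters and not evidence of binding.

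**Figure D1:**
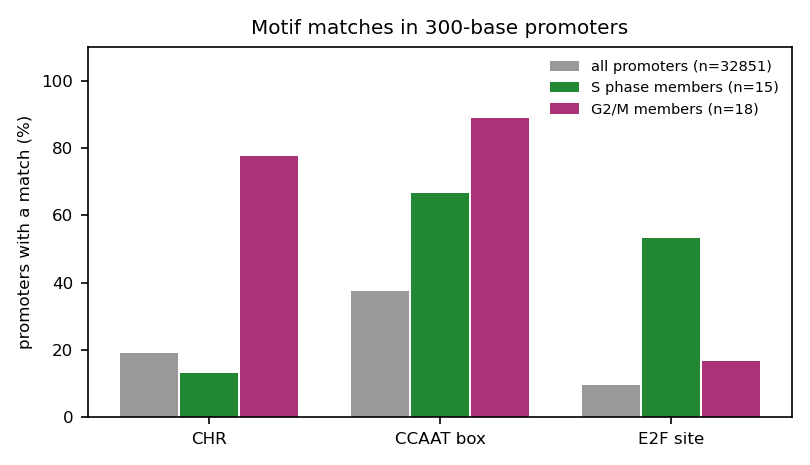
Share (percent, y axis) of all RefSeq promoters (grey), S phase members (green) and G2/M members (purple) with a CHR, CCAAT box or E2F match in 300-base windows. Members are counted once each, and all promoters per window. The CHR bar of the G2/M members stands at 77.8% and that of the S phase members at 13.3%.

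The following 4 promoter stretches belong to mitotic members and show the CHR and CCAAT matches in capitals, on either strand. E2F matches in the Cdk1 and Mki67 stretches are left in small letters. Cdk1 encodes the mitotic cyclin-dependent kinase (chr10:69352913-69353062, minus strand), Mki67 the perichromosomal protein Ki-67 (chr7:135716430-135716579, minus strand), Ccnb2 cyclin B2 (chr9:70421535-70421684, minus strand) and Top2a topoisomerase II alpha, which untangles sister chromatids (chr11:99024200-99024389, minus strand). Each is written 5' to 3' on the strand of the gene.
Cdk1: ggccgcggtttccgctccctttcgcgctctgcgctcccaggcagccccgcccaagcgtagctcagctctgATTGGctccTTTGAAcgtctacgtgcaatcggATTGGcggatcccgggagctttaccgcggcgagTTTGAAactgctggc
Mki67: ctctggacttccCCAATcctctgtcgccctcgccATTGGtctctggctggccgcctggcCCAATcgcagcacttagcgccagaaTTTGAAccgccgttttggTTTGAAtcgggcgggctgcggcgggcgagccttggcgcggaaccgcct
Ccnb2: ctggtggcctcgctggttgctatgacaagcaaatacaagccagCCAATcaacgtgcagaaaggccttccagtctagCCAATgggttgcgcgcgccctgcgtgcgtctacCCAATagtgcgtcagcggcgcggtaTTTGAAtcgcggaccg
Top2a: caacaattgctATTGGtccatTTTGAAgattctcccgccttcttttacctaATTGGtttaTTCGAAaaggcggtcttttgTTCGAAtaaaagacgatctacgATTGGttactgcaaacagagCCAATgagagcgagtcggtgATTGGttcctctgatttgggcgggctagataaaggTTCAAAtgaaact

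The next 3 stretches belong to S phase members and carry E2F matches in capitals, which overlap in Mcm5 and Mcm6. Rrm2 has a CCAAT box in capitals as well, while the CCAAT boxes in the Mcm5 and Mcm6 stretches are left in small letters. Mcm5 (chr8:75109329-75109508, plus strand) and Mcm6 (chr1:128359706-128359855, minus strand) encode subunits of the replicative helicase, and Rrm2 (chr12:24708004-24708223, plus strand) encodes the small subunit of ribonucleotide reductase, the enzyme that makes deoxyribonucleotides. Rrm2 is shown because it departed from the other members in the comparisons that follow.
Mcm5: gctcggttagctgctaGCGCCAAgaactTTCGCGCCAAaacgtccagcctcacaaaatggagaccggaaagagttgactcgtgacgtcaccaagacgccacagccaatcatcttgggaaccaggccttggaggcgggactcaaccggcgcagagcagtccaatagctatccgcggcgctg
Mcm6: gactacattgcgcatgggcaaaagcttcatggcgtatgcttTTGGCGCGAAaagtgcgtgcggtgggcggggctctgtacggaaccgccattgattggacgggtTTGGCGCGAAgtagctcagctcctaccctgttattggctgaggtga
Rrm2: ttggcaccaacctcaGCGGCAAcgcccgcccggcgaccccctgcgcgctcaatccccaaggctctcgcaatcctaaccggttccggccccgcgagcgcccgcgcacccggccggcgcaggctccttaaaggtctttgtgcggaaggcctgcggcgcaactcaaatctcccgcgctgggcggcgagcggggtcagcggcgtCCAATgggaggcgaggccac

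The WT matrix held 3842 kept cells of 3905 barcodes with 49063944 UMIs, the molecular tags that count captured transcripts, and the cKO matrix 4026 of 4105 with 37666195 UMIs. The libraries shared 2 barcodes. Cells were called Treg by their own transcripts, 3240 in WT and 2834 in cKO, with medians of 8546 and 6427 UMIs. In these cells Foxp3, the defining factor, stood at 37.0 and 58.7 CPM (UMIs of a gene per 1000000 UMIs of the summed cells), Ikzf2 at 1374 and 1286 CPM, and Ctla4 at 1196 and 2034 CPM. Cd8a, at 0.551 and 1.23 CPM, and the macrophage gene Lyz2, at 3.36 and 18.7 CPM, were low by the rule that chose the cells. Over whole marker lists, the 7 CD8 T genes summed to 2526 and 3084 CPM, with Nkg7 at 559 and 611 CPM and Ccl5 at 383 and 498 CPM. The 10 myeloid genes summed to 899 and 988 CPM, mostly Cst3, at 815 and 757 CPM. Tyrobp stood at 37.0 and 82.5 CPM and Fcer1g at 22.5 and 83.9 CPM. No gene of either list was at 0, and their part in the results was not tested. Jmjd1c itself stood at 88.6 CPM in WT and 74.1 CPM in cKO Treg cells, and since the removed exons are not given and 3' tags may lie outside them, this checks neither deletion nor labels. Xist was found in 97.1% of WT and 0.273% of cKO cells, and Y-linked transcripts in 0% and 74.6%, so the libraries also differ in sex, and sex and genotype cannot be told apart. With 1 library per group there is no replicate check. Every interval given is a 95% interval for counting error only, exact Poisson for levels, exact binomial (Clopper-Pearson) for shares and exact conditional for ratios.

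Summed over all Treg cells, the module was lower in cKO. Its 40 genes together made up 3946 CPM in WT and 2941 CPM in cKO, a ratio of 0.745 (0.739 to 0.752). S phase members stood at 1181 and 914 CPM (ratio 0.774, 0.761 to 0.786) and G2/M members at 2765 and 2027 CPM (0.733, 0.725 to 0.741). By sign, 37 of the 40 were lower in cKO, and the interval of the ratio lay below 1 for 36 of them. The median log2((CPM cKO + 5)/(CPM WT + 5)) over the 40 was -0.38. Over the 7081 genes that averaged 10 CPM or more that median was -0.01, and 35.6% of them had an interval below 1, so an interval below 1 is common in libraries this deep. At least 1.5-fold lower on that scale, and averaging 10 CPM or more, were 5 members, Cenpf, Cenpe, Tpx2, Cdca3 and Ccnb2, of the 36 that reached that level. The background for this call was 3.88% of genes. No member was called higher, against 4.83% of genes.

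The kinetochore and spindle genes were the lowest role group. Cenpf, a large protein of the outer kinetochore, stood at 36.9 CPM in WT (34.9 to 38.8, from 1405 UMIs) and 19.1 CPM in cKO (17.4 to 21.0, from 450 UMIs), a log2 ratio of -0.80. Cenpe, the kinesin motor of the kinetochore, stood at 23.9 and 12.6 CPM (-0.72), and Tpx2, which activates Aurora A on spindle microtubules, at 32.1 and 17.9 CPM (-0.69). Nusap1, a spindle microtubule binder, stood at 47.9 and 31.5 CPM (-0.54). Stmn1, which takes microtubules apart, and Cenpa, the histone H3 variant of centromeres, were the abundant genes of this group. Stmn1 stood at 330 and 241 CPM (-0.45) and Cenpa at 312 and 241 CPM (-0.37). All 6 had a ratio interval below 1, as did 35.6% of all genes tested.

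Among the mitotic cyclins, their kinase and the ubiquitin machinery, the spread was wider. Ccnb2, a B-type cyclin, stood at 52.8 and 33.3 CPM (-0.60), and Cks1b, a small Cdk-binding protein, at 74.2 and 51.1 CPM (-0.50). Ccnb1, the other B-type cyclin, stood at 19.3 and 13.6 CPM (-0.39), Ube2c, the ubiquitin-conjugating enzyme of the anaphase-promoting complex, at 101 and 77.2 CPM (-0.37), and Cdk1 at 47.9 and 38.6 CPM (-0.28). Ccna2, cyclin A2, acts in both S phase and G2, and stood at 32.6 CPM (30.8 to 34.4) and 31.1 CPM (28.9 to 33.5). Its ratio of 0.956 (0.871 to 1.05) spanned 1.

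The mitotic kinases and their partners were mostly rare. Birc5, survivin of the chromosomal passenger complex, was the most abundant at 98.9 and 66.5 CPM (-0.54). Its partners Cdca8, borealin, and Aurkb, the Aurora B kinase, stood at 57.2 and 44.3 CPM (-0.34) and at 25.4 and 21.4 CPM (-0.21). Aurka, Bub1 and Plk1, kinases of the centrosome, the checkpoint and mitotic entry, stayed below 10 CPM in both libraries. Aurka had a ratio of 1.004 (0.826 to 1.22), and Bub1 and Plk1 had 0.725 (0.582 to 0.899) and 0.653 (0.529 to 0.802). Of the remaining G2/M members, Mki67 stood at 115 and 81.7 CPM (-0.47), Top2a at 169 and 122 CPM (-0.46), and the chromatin protein gene Hmgb2, the most abundant of the 40, at 1119 and 836 CPM (-0.42). Cdca3, a trigger of mitotic entry, stood at 45.9 and 28.4 CPM (-0.61).

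S phase members ranged from lower to higher in cKO. The helicase subunits Mcm2 to Mcm7 had log2 ratios from -0.57 for Mcm3 (77.6 and 50.5 CPM) to -0.15 for Mcm2 (26.0 and 22.9 CPM), and Gins2, of the GINS part of that helicase, stood at 23.6 and 14.7 CPM (-0.54). At the replication fork, the sliding clamp Pcna stood at 169 and 134 CPM (-0.32), its binding partner Pclaf at 154 and 116 CPM (-0.39), and Uhrf1, which carries DNA methylation through replication, at 26.6 and 19.2 CPM (-0.38). Nucleotide enzymes went apart. Dut, the dUTPase, stood at 184 and 122 CPM (-0.58), and thymidine kinase Tk1 at 34.2 and 23.4 CPM (-0.46). Rrm1, the large subunit of ribonucleotide reductase, stood at 56.5 and 42.1 CPM (-0.38), and thymidylate synthase Tyms at 69.6 and 60.2 CPM (-0.19). Rrm2, the small subunit, was instead higher in cKO, at 47.6 CPM in WT (45.4 to 49.8, from 1813 UMIs) and 57.6 CPM in cKO (54.6 to 60.8, from 1357 UMIs), a ratio of 1.21 (1.13 to 1.30). The G1/S genes were near 10 CPM. E2f1 stood at 12.2 and 10.2 CPM, Ccne2, cyclin E2, at 9.39 and 5.35 CPM, and Ccne1, cyclin E1, at 9.76 and 10.6 CPM with a ratio of 1.09 (0.923 to 1.28).

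A sum over a class mixes 2 things, how many cells are in the cycle and what part of their UMIs the module makes up. Reporter genes outside the module, 30 for S phase and 48 for G2 and mitosis, were used to describe both. No member thus chose the cells in which it was then read. The reporters act in the same phases, so a lower level per cell would also move cells below a threshold. Share and level are therefore not fully told apart. Each Treg cell with at least 4000 UMIs (3145 in WT and 2502 in cKO; 95 and 332 shallower cells were left out) was thinned to 4000 UMIs. It was counted as cycling with at least 3 UMIs of either reporter list. By this rule 31.4% of WT Treg cells (29.7 to 33.0) and 17.9% of cKO Treg cells (16.4 to 19.5) were cycling, a ratio of 0.571 (0.510 to 0.639). Without thinning the shares were 62.6% and 35.9%. The rule is a range on a scale and not a cell type, since 32.4% and 26.1% of the cells lay at the threshold or 1 UMI below it.

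A single reporter carried much of that gap. Lig1, DNA ligase I, joins Okazaki fragments, yet in Treg cells below the 3-UMI threshold it still stood at 93.1 CPM in WT and 31.3 CPM in cKO. Summed over all Treg cells it stood at 174 and 74.5 CPM, a log2 ratio of -1.17, lower than that of any member. With Lig1 taken out, a choice made after seeing the data, the cycling shares were 22.0% (20.6 to 23.5) and 15.2% (13.8 to 16.7), a ratio of 0.692 (0.609 to 0.785). With at least 5 reporter UMIs and no Lig1 they were 11.6% (10.5 to 12.8) and 8.11% (7.07 to 9.25), a ratio of 0.697 (0.584 to 0.830). With at least 8 they were 8.08% and 5.84%, a ratio of 0.723 (0.585 to 0.889). The cKO share was lower at each threshold, with the ratio nearer to 1 once Lig1 was left out. Cycling Treg cells are taken in what follows as those with at least 5 reporter UMIs without Lig1, 366 in WT and 203 in cKO, unless the 3-UMI rule is named.

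**Figure D2:**
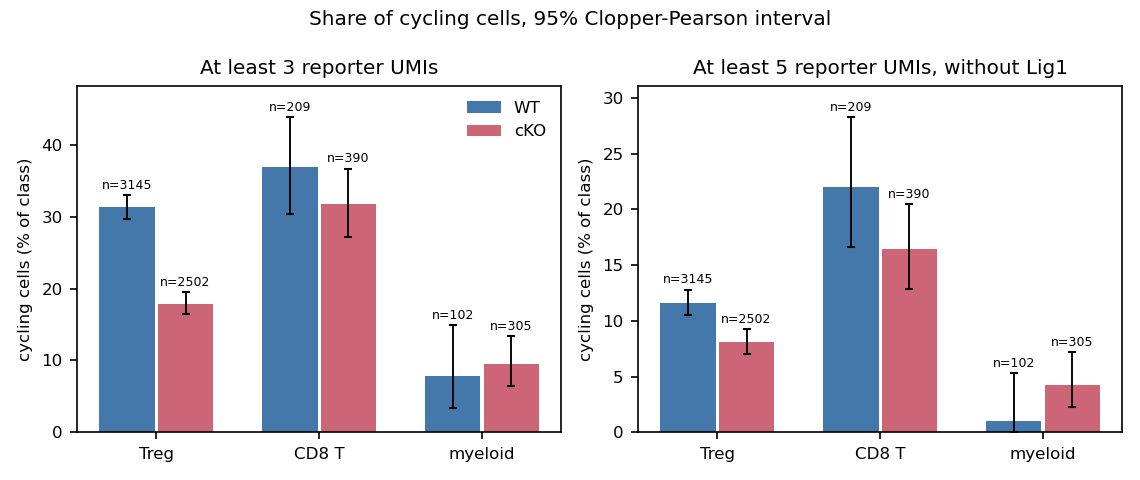
Cycling cells as a percent of each class (y axis) in WT (blue) and cKO (red), with 95% Clopper-Pearson intervals and the number of cells, by the 3-UMI rule (left) and by the rule of 5 UMIs without Lig1 (right). Treg shares stand at 31.4% and 17.9% on the left and at 11.6% and 8.11% on the right.

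Cells were split into G2/M-high, with at least as many G2/M as S reporter UMIs, and S-high. The balance between them depended on Lig1 and on the threshold. By the 3-UMI rule, G2/M-high cells made up 31.3% (28.5 to 34.3) of cycling WT and 38.6% (34.1 to 43.3) of cycling cKO Treg cells. Without Lig1 the shares were 48.4% and 47.5% at 3 UMIs, 61.5% (56.3 to 66.5) and 62.1% (55.0 to 68.8) at 5 and 70.1% and 66.4% at 8. With Lig1 kept, they were 57.7% and 58.3% at 8 UMIs, a threshold added after seeing the data. The S-high share of all Treg cells had a ratio of 0.686 (0.513 to 0.913) and the G2/M-high share one of 0.704 (0.561 to 0.879) at 5 UMIs. Both states were thus less frequent in cKO by about the same ratio, each with wide counting intervals.

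Most members were concentrated in these few cells. Cycling cells were 11.6% of WT and 8.11% of cKO Treg cells with at least 4000 UMIs, and held 25.9% and 17.96% of their UMIs, since they carried medians of 23563 and 17897 UMIs against 8109 and 6689 in cells below the 3-UMI rule. For the median member, 80.5% of its UMIs in WT and 79.6% in cKO lay in them. The shares were 93.0% and 95.9% for Ccna2 and 92.1% and 93.4% for Aurkb, near the upper end. Cenpa was the least concentrated, with 37.6% and 26.7%, and Mcm6 had 49.8% and 40.7%. Hmgb2 had 63.6% and 57.8%.

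Within cycling Treg cells the module was no longer lower in cKO as a part of their UMIs. Its genes made up 10758 CPM in WT and 11297 CPM in cKO, a ratio of 1.05 (1.04 to 1.06). As plain counts, a cycling cell held on average 288 member UMIs in WT and 225 in cKO, with median depths of 23563 and 17897 UMIs. Levels per cycling cell are given as CPM and are therefore relative to totals that differed between the libraries. S phase members stood at 3099 and 3504 CPM (1.13, 1.11 to 1.15), and G2/M members at 7659 and 7793 CPM (1.02, 1.004 to 1.03). The median log2 ratio of the 40, all at 10 CPM or more here, was 0.06, with 25 higher and 15 lower, beside 0.01 over all genes tested. Of the 40, 1 was called at least 1.5-fold higher (4.52% of genes were) and 0 at least 1.5-fold lower (3.83% of genes were). By the 3-UMI rule the median was 0.16, 3 members were called higher, Rrm2, Ccna2 and Ccne1, and 0 lower (3.81% and 3.72% of genes).

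Rrm2 was the member called higher per cycling cell. It stood at 168 CPM in WT (160 to 176, from 1641 UMIs) and 307 CPM in cKO (290 to 324, from 1238 UMIs), a ratio of 1.83 (1.70 to 1.97). Its partner Rrm1 stood at 159 and 173 CPM, a ratio of 1.09 (0.992 to 1.19). After thinning, a UMI of Rrm2 was seen in 34.4% (29.6 to 39.5) of WT and 55.2% (48.1 to 62.1) of cKO cycling Treg cells. Unthinned, these shares were 69.9% and 73.9%. In thinned myeloid cells, which should hold little of it, the shares were 0.98% and 1.31%, from median depths of 20642 and 13877 UMIs. Ccna2 stood at 118 and 173 CPM (1.47, 1.34 to 1.61), Ccne1 at 29.7 and 45.1 CPM (1.52, 1.25 to 1.83) and Tyms at 200 and 265 CPM (1.33, 1.23 to 1.43). Aurka stood at 22.0 and 31.5 CPM (1.43, 1.14 to 1.79) and Aurkb at 91.3 and 116 CPM (1.27, 1.13 to 1.42). Rrm2, Ccne1 and Aurka, the 3 members that were not lower by sign in the sum over all Treg cells, were thus among the highest per cycling cell.

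At the other end stood kinetochore and spindle genes. Per cycling Treg cell, Cenpf stood at 128 CPM in WT (121 to 135) and 94.9 CPM in cKO (85.6 to 105), a ratio of 0.742 (0.660 to 0.832). Cenpa stood at 455 and 357 CPM (0.784, 0.738 to 0.832), Cenpe at 76.7 and 60.5 CPM (0.789, 0.680 to 0.912) and Tpx2 at 111 and 91.7 CPM (0.823, 0.729 to 0.927). Cdca3 had a ratio of 0.898 (0.815 to 0.988). These 5 G2/M genes had intervals below 1 and none passed 1.5-fold, and 0 S phase members had an interval below 1. Of all genes tested in these cells 19.6% had such an interval, so 5 of 40 is not above the background. Mki67, at 387 and 407 CPM, Top2a, at 550 and 550 CPM, and Birc5, at 343 and 347 CPM, had ratio intervals of 0.992 to 1.11, 0.951 to 1.05 and 0.9497 to 1.08. For these proliferation markers the counting interval held 1 and lay above the ratio of the gene in the sum over all Treg cells. It covers counting error only, and reporters of the same phases chose the cells, so it does not tell share from level.

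**Figure D3:**
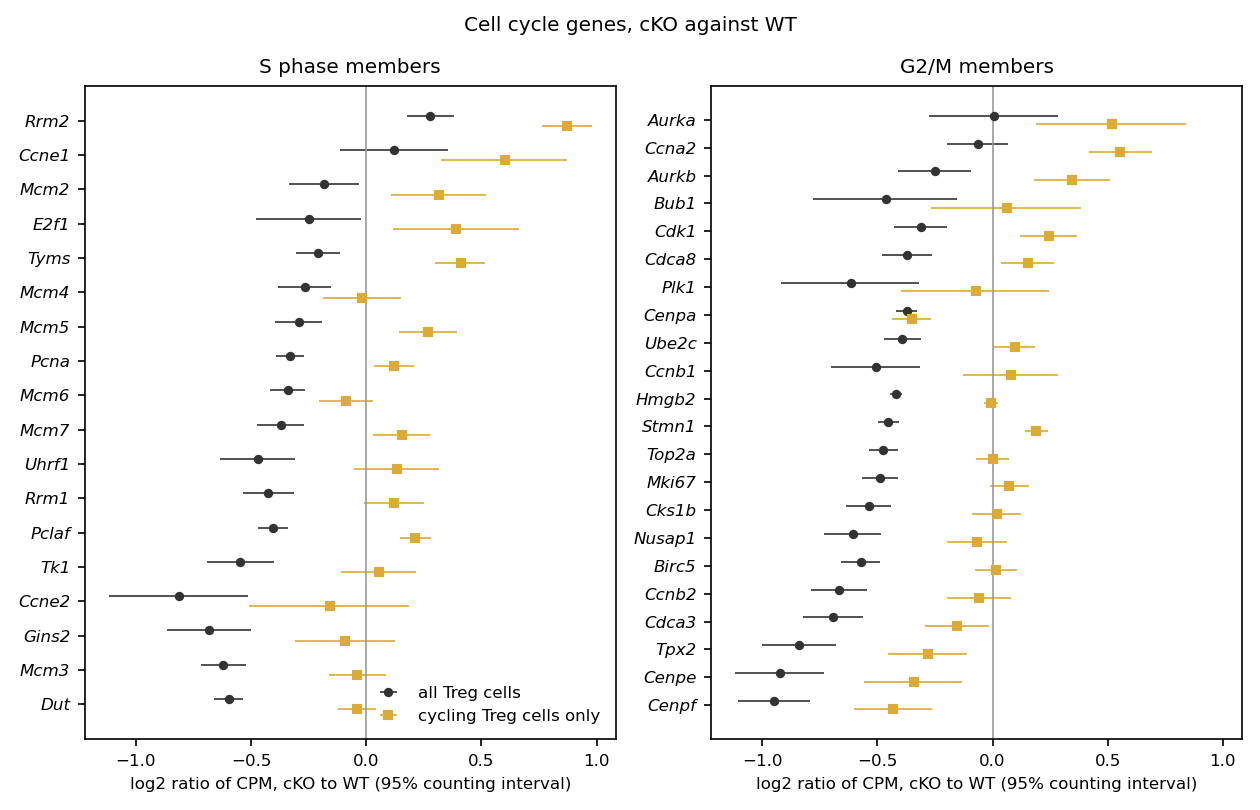
Log2 ratio of CPM, cKO to WT (x axis, no pseudocount), for each S phase member (left) and G2/M member (right), with 95% counting intervals, in all Treg cells (dark circles) and in cycling Treg cells (yellow squares). Dark circles lie mostly left of 0, while the yellow squares scatter around 0, with Rrm2 at a ratio of 1.83 and Cenpf at 0.742.

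When the cKO cells were weighted so that 5 strata of reporter UMIs had the WT make-up, an alternative chosen after seeing the data, the median log2 ratio over the 36 members averaging 10 CPM or more moved from -0.35 to -0.02, and 0 of them were called lower in place of 3. Of all 7077 genes tested in these cells, 3.9% were called lower before the weighting and 261 after it. Weighting WT levels by the cKO make-up instead gave a median of -0.33. The strata rest on reporters of the same phases, so this weighting does not fully tell share from level. The median of all genes stayed near 0, at -0.01 and 0.00. Rrm2 went from 0.29 to 0.75, Cenpf from -0.77 to -0.39, Cenpe from -0.69 to -0.35, Cenpa from -0.38 to -0.31 and Mki67 from -0.43 to 0.01. Cenpa changed least of these, and it was also the member least confined to cycling cells. The ratio of cycling shares rose from 0.571 to 0.692 when Lig1 was left out, and at 3 UMIs it was 0.573 without thinning. Sex and genotype cannot be told apart in these shares.

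Within the cycle, the members kept the order their names give. All 22 G2/M members were higher in G2/M-high than in S-high cycling Treg cells in both libraries, with a median log2 ratio of 1.23 in WT and 0.88 in cKO. Ube2c had the highest ratio, at 71.6 CPM in S-high and 499 CPM in G2/M-high WT cells (2.72), and 104 and 515 CPM in cKO (2.25). Stmn1 had the lowest of the G2/M members, 0.44 and 0.30. Of 18 S phase members, 15 in WT and 17 in cKO were higher in S-high cells. E2f1 led, at 59.0 and 17.2 CPM in WT (-1.53) and 73.1 and 25.4 CPM in cKO (-1.36). Pclaf, with 0.15 and 0.03, lay on the G2/M side in both libraries, and Rrm1 and Tk1 in WT. The reporters that sorted these cells are of the same phases, so this order describes the members and is not an independent finding.

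**Figure D4:**
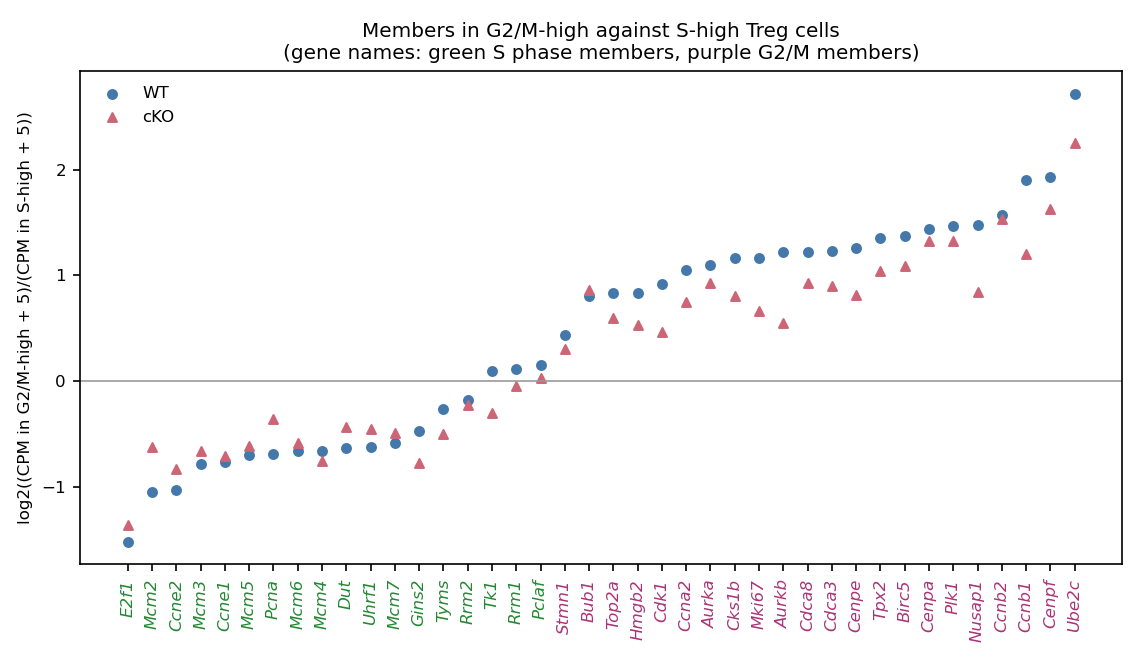
Log2 ratio of the level in G2/M-high to that in S-high cycling Treg cells (y axis, pseudocount of 5 CPM) for each of the 40 members, ordered by WT, in WT (blue circles) and cKO (red triangles). All 22 G2/M members lie above 0 and the S phase members lie at or below it, with 3 exceptions in WT and 1 in cKO.

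The S-high and G2/M-high cells differed between the libraries in different members. In S-high cells (141 and 77), G2/M members stood at 4637 CPM in WT and 5535 CPM in cKO, a ratio of 1.19 (1.16 to 1.23), and 4 of the 40 members were called higher, Rrm2, Aurkb, Ccna2 and Ccnb1 (5.96% of genes), with 0 lower (5.94%). Aurkb stood there at 47.4 and 88.6 CPM (1.87, 1.48 to 2.36), Cdk1 at 104 and 156 CPM (1.498, 1.27 to 1.77) and Mki67 at 216 and 297 CPM (1.38, 1.22 to 1.55). In G2/M-high cells (225 and 126), G2/M members stood at 9441 and 9097 CPM, a ratio of 0.964 (0.949 to 0.978), and 14 of the 22 were lower by sign. Of the 40 members 1, Rrm2, was called higher there and 0 lower (5.49% and 4.42% of genes). There Cenpf stood at 178 and 128 CPM (0.718, 0.633 to 0.813), Cenpe at 99.1 and 72.7 CPM (0.734, 0.619 to 0.866) and Aurkb at 117 and 132 CPM (1.12, 0.985 to 1.28). Rrm2 was higher in both states, at 182 and 339 CPM in S-high and 159 and 288 CPM in G2/M-high cells.

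Treg cells without any reporter UMI after thinning (496 in WT, 633 in cKO) still held members. In them the module stood at 1261 CPM in WT and 969 CPM in cKO, a ratio of 0.768 (0.740 to 0.797), carried mostly by 2 genes. Hmgb2 stood at 489 and 388 CPM (0.795, 0.749 to 0.844) and Cenpa at 267 and 184 CPM (0.690, 0.634 to 0.751). Pcna stood at 80.3 and 68.4 CPM, Dut at 72.3 and 47.1 CPM (0.651, 0.550 to 0.769), Mcm6 at 59.6 and 56.1 CPM and Stmn1 at 44.4 and 28.1 CPM (0.632, 0.508 to 0.784). Only 13 of the 40 reached a mean of 10 CPM here, and 0 of them were called lower or higher (5.82% and 4.7% of genes). After thinning, 52.2% of these WT and 42.2% of these cKO cells had a Cenpa UMI, against 27.5% and 27.9% of myeloid cells (unthinned 69.8% and 57.2% against 70.6% and 55.4%). Free RNA and expression by resting cells were not told apart by these shares.

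**Figure D5:**
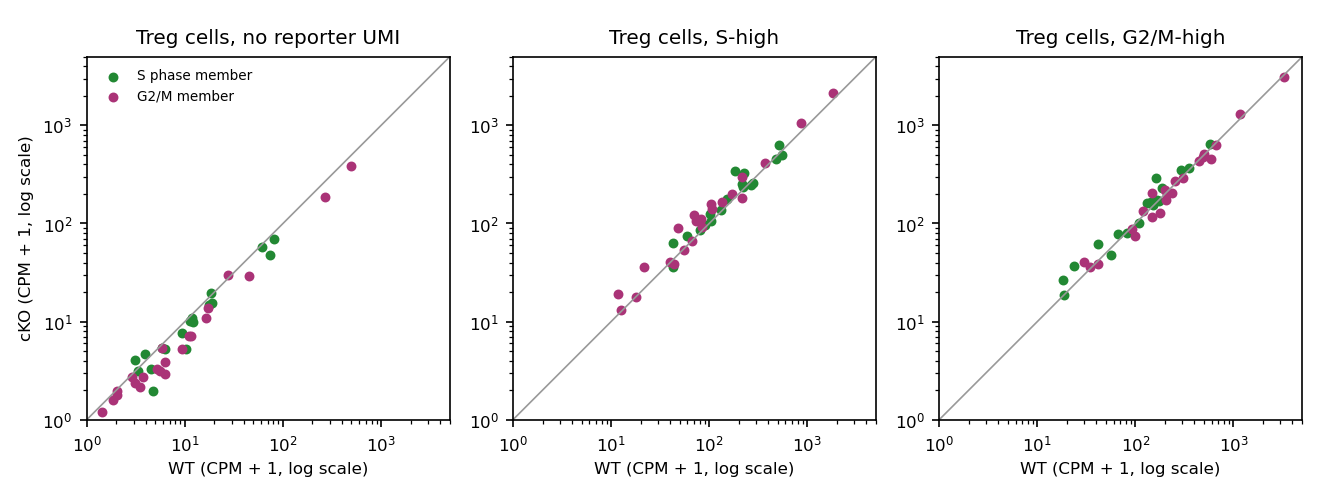
Level of each member in cKO (y axis) against WT (x axis), both as CPM + 1 on log scales, in Treg cells with no reporter UMI, in S-high and in G2/M-high cycling Treg cells, with S phase members in green and G2/M members in purple. The grey line marks equal levels, and most points of the first panel lie under it, Hmgb2 with 489 and 388 CPM and Cenpa with 267 and 184 CPM at its top.

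Other cell cycle genes were read from the reporter lists and from a list of 40 regulators. In all Treg cells, 21 of the 30 S reporters reached 10 CPM, with a median log2 ratio of -0.28, and 3 were called lower and 0 higher (3.88% and 4.83% of genes). Besides Lig1, the lowest were Clspn, the checkpoint adaptor claspin, at 29.9 and 17.5 CPM (-0.64), and Pola1, the catalytic subunit of polymerase alpha, at 17.5 and 9.90 CPM (-0.60). The highest were the licensing factor Cdt1, at 19.9 and 22.8 CPM (0.16), and the histone chaperone genes Chaf1b (0.05) and Asf1b (-0.05). Of the 48 G2/M reporters, 23 reached 10 CPM, with a median of -0.27, and 4 were called lower and 0 higher, against the same background. The lowest were Knl1, a kinetochore scaffold, at 15.9 and 6.97 CPM (-0.80), the kinesin gene Kif15 at 29.0 and 15.7 CPM (-0.72) and Hmmr at 16.7 and 8.45 CPM (-0.69). The highest were Kif23 (0.01), Ncaph (-0.13) and Hjurp (-0.16). These lists chose the cycling cells, so their values within those cells are not given as results.

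The regulators did not follow the module. Of 26 that reached 10 CPM, 12 were higher and 14 lower by sign, with a median of -0.02, and 3 were called higher and 1 lower (4.83% and 3.88% of genes). Cdkn2d, the INK4 inhibitor p19, which blocks Cdk4 and Cdk6, stood at 62.3 and 127 CPM (0.98). Ccnd3, cyclin D3, which activates the same kinases, stood at 74.0 and 130 CPM (0.77), and Myc stood at 16.9 and 33.0 CPM (0.79). In Treg cells without a reporter UMI, Cdkn2d stood at 64.8 and 122 CPM and Ccnd3 at 83.4 and 137 CPM, and in cycling cells at 69.8 and 136 CPM and at 68.8 and 133 CPM. Both genes were thus higher in cKO by similar ratios in Treg cells without a reporter UMI and in cycling ones. They were also higher in the CD8 T and myeloid cells described below. Cdkn2d had ratios of 1.48 (1.27 to 1.72) and 1.43 (1.14 to 1.79) there, and Ccnd3 of 1.45 (1.27 to 1.66) and 1.28 (1.08 to 1.53). Myc had ratios of 1.03 (0.738 to 1.45) and 0.737 (0.487 to 1.13) in these 2 classes. Tfdp2, a partner of E2F factors, was called lower, at 16.6 and 8.16 CPM (-0.72). The pocket protein gene Rbl2 (-0.53) and the phosphatase gene Cdc25a (-0.33) were lower without passing 1.5-fold. In CD8 T cells Tfdp2 had a ratio of 0.551 (0.355 to 0.845), Rbl2 of 0.639 (0.516 to 0.790) and Cdc25a of 0.732 (0.481 to 1.11). Among clustered histone genes, 14 of the 22 that reached 10 CPM were called lower in all Treg cells (3.88% of genes), and 20 of 40 within cycling Treg cells (3.83% of genes), where 0 of the 40 members were.

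The same comparison was made in cells that were not meant to lose Jmjd1c. Cells passing a CD8 T rule numbered 213 in WT and 407 in cKO, and those passing a myeloid rule 103 and 321, with 4 cKO cells passing both. The CD8 T cells also carried Treg markers, whose 9 genes summed to 4576 and 3970 CPM with none at 0, and in WT the 10 myeloid markers summed to 1861 CPM, against 663 CPM in cKO. The CD8 T sets of the libraries also differed in other markers and in depth. The 7 CD8 T genes summed to 5065 CPM in WT and 10791 CPM in cKO, and the 6 dendritic cell genes to 178 and 30.6 CPM. Median depths were 18131 and 10688 UMIs. The sets may thus differ in make-up, and the part of this and of doublets in the values below was not tested. The module stood in CD8 T cells at 4399 CPM in WT and 4459 CPM in cKO, a ratio of 1.01 (0.995 to 1.03). The median log2 ratio of the 40 was -0.08, with 2 called higher, Rrm2 and Ccne1 (3.52% of genes), and 0 lower (7.56%). Cycling cells made up 36.8% (30.3 to 43.8) and 31.8% (27.2 to 36.7) by the 3-UMI rule and 22.0% (16.6 to 28.2) and 16.4% (12.9 to 20.5) by the rule of 5 without Lig1. The ratio under the latter, 0.746 (0.503 to 1.11), has an interval that holds both 1 and the Treg value of 0.697. Without Lig1 at 3 and 8 UMIs the ratio was 0.898 (0.660 to 1.23) and 0.911 (0.569 to 1.48). The Treg ratios at these thresholds, 0.692 and 0.723, were further from 1 but lay inside these intervals. By the 3-UMI rule with Lig1 the CD8 T ratio was 0.863 (0.644 to 1.16), and its interval lay above that of Treg cells, 0.571 (0.510 to 0.639). Whether the classes differ thus depended on the rule, and the difference itself was not tested. Lig1 was lower in cKO here too, at 137 and 87.2 CPM, and in myeloid cells, at 62.9 and 23.5 CPM.

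Per cycling CD8 T cell (46 and 64), Rrm2 stood at 198 and 357 CPM (1.80, 1.55 to 2.09), Ccne1 at 26.7 and 63.7 CPM (2.38, 1.61 to 3.58), Ccna2 at 133 and 202 CPM (1.52, 1.26 to 1.83) and Aurkb at 70.4 and 110 CPM (1.57, 1.21 to 2.04). Of the 40 members, 3 were called higher, Ccne1, Rrm2 and Aurkb (6.58% of genes), and 0 lower (8.47%). Rrm2, Ccna2 and Ccne1 were also the 3 highest by log2 ratio per cycling Treg cell. The kinetochore and spindle genes that were lower per cycling Treg cell had no interval below 1 there, though that of Cenpe held its Treg ratio. Cenpa had a ratio of 1.14 (1.02 to 1.28), Cenpf of 1.12 (0.891 to 1.41), Cenpe of 0.997 (0.747 to 1.33) and Tpx2 of 1.11 (0.860 to 1.43), and the difference between the classes was not tested. Myeloid cells held little of the module and few cycling cells, 8 of 102 in WT (7.84%, 3.45 to 14.9) and 29 of 305 in cKO (9.51%, 6.46 to 13.4) by the 3-UMI rule. Cells that passed no class rule also had a lower cycling share in cKO. It was 29.1% of 230 WT and 18.3% of 338 cKO cells by the 3-UMI rule, a ratio of 0.630 (0.438 to 0.903). With at least 5 reporter UMIs and Lig1 kept, the ratio was 0.418 (0.249 to 0.689). What these cells are was not tested.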

How the data were processed

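Gene by cell matrices of raw UMI counts were deposited by the authors for both libraries, made with Cell Ranger 5.0.1 on mm10 per the submitters' processing notes; the annotation release and strand setting are not stated in the labels used here. Of the members, 7 overlap another annotated gene on the same strand and 13 on the other strand, so counts of these could be shared. The members and all gene lists were chosen with earlier results of these data known.

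Cells with at least 500 genes and under 10% mitochondrial UMIs were kept. Classes were set by summed marker UMIs. A Treg cell had at least 6 UMIs of the Treg markers, at least 1 of Cd3 genes, at most 1 of Cd8 genes and at most 2 of the myeloid genes Lyz2 and C1qa. A CD8 T cell had at least 3 Cd8 UMIs, and a myeloid cell at least 10 UMIs of these myeloid genes. Cells passing no rule, 286 in WT and 468 in cKO, were left out except for their cycling share. Scrublet (scanpy 1.11.5) called 2 WT and 0 cKO cells as doublets, which is no working call, so none were removed, and dropping the 5% of cells with the highest scores was tried instead. Reporter UMIs were counted after thinning to 4000 UMIs per cell. Levels are CPM of UMIs summed per library and class, and ratios are log2 with a pseudocount of 5 CPM where log2 is written. A gene was called at a 1.5-fold difference with a mean of at least 10 CPM, with no p-value. The text names all 40 members and, of the reporter and regulator lists, the 3 highest and 3 lowest log2 ratios in all Treg cells. The rules without Lig1 and the equal make-up of states were added after seeing the data. The calculation was tested on simulated counts, with Python 3.11.15, numpy 2.4.6, scipy 1.17.1 and pandas 2.3.3.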

Additional observations from a re-analysis of the deposited data

Results flagged for a closer look

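Some members differed in opposite directions in 2 cell classes, with counting intervals on opposite sides of equal levels in each. In CD8 T cells, log2 ratios of cKO to WT were 0.11 for Stmn1, 0.36 for Aurkb, 0.15 for Hmgb2 and 0.22 for Pclaf, against -0.45, -0.21, -0.42 and -0.39 in Treg cells. In myeloid cells they were 0.70 for Birc5, 0.83 for Cdk1, 0.72 for Ccnb1, 0.58 for Ccnb2, 0.97 for Ube2c, 0.74 for Cenpf and 0.64 for Cdca8, against -0.54, -0.28, -0.39, -0.60, -0.37, -0.80 and -0.34 in Treg cells. The myeloid values rest on few transcripts, such as 6 and 37 UMIs for Cenpf and 20 and 104 for Ube2c. The share of all genes that meet this rule is not given here, so these members have no background. In all Treg cells alone, 35.6% of genes tested had a ratio interval below 1. With 1 library per group the difference between classes was not tested.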

How the results depend on the processing

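The cycling share of Treg cells, a log2 ratio of -0.81, stayed below 0 in every alternative run. It was -0.50 with at least 2 reporter UMIs and -0.53 with at least 8, and without Lig1 it was -0.53, -0.52 and -0.47 at 3, 5 and 8 UMIs. The G2/M-high share of cycling Treg cells, 0.30, became -0.0272, 0.0139 and -0.0770 without Lig1 at these thresholds. It also became 0.0146 with Lig1 kept and at least 8 UMIs, so both the gene and the threshold move it. For myeloid cells the cycling ratio moved from 0.28 to 2.12 without Lig1 at 5 UMIs, from 1 WT cell. The median over members in all Treg cells, -0.39 over the 36 at 10 CPM, was -0.35 in Treg cells with at least 4000 UMIs, and in those it became -0.0172 at equal make-up of states. The count of members at least 1.5-fold lower, 5 (3.88% of genes), became 9 with a pseudocount of 1 CPM. The share of all genes at that pseudocount is not given here, so 9 has no background. The count was 3 in Treg cells with at least 4000 UMIs (3.9% of genes), and 0 in those at equal make-up (261 of 7077 genes). Per Treg cell cycling by the 3-UMI rule, the median of 0.16 became -0.0151 with at least 2 reporter UMIs. Under that setting Top2a (-0.0768), Birc5 (-0.0473), Ccnb1 (-0.00636), Hmgb2 (-0.0861), Cks1b (-0.0117) and Pcna (-0.0184) turned sign. Hmgb2 also did so without Lig1 at 5 (-0.00681) and 8 UMIs (-0.0390), as did Ube2c (-0.17) and Cks1b (-0.00170) at 8. For these single genes the cause was not tested. No paired analysis was possible because each group has 1 library, and for the same reason no replicate could be left out.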
